A study of Mus musculus with 15 samples.

Results

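Lipid synthesis in the mouse heart was followed through 6 genes: the small regulators Thrsp and Mid1ip1, the enzymes Acly and Fasn, and the desaturases Scd1 and Scd2. They were chosen by name, as the probe sets that the platform annotation assigns to exactly 1 of these symbols or its current synonym. They make up 6 of the 8251 genes and 10 of the 12422 probe sets on the arrays. All 6 were among the 4950 genes tested, so none was lost to the filter on dim genes. Thrsp passed that filter only through the 4-week control hearts, where its mean intensity was 548, against 115 to 197 in the other groups. The dimmest gene tested had a mean of 183.9 over all arrays, taken back from the log scale. The calls and ranks of Thrsp thus rest on the group that let it in. The choice was made with the measured values over all 4 groups of hearts known. The values of these genes are therefore given as a description, and counts of calls among them support nothing.

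The hearts came from a study of MAT1 removal from heart muscle cells. MAT1, encoded by Mnat1, holds together the kinase complex of Cdk7 and cyclin H that belongs to the transcription factor TFIIH. Both genotypes carried 1 copy of a Cre transgene under the alpha-myosin heavy chain promoter, which is active in heart muscle cells. Knockout hearts (CKO) had 2 floxed Mnat1 alleles, whereas control littermates had 1 floxed and 1 wild-type allele, so the controls too could lose an allele in heart muscle cells. Cardiac RNA was taken at 2 weeks (3 control and 4 knockout arrays) and at 4 weeks of age (3 control and 5 knockout arrays). The labels do not say that arrays came from separate mice, so p-values measure only the spread between these arrays, which may be technical. Values are the deposited linear intensities, 1 per probe set and array, and differences are on the scale of log2(intensity + 16), which understates the change of dim genes.

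Fatty acids are built in the cytosol from citrate that leaves the mitochondria. ATP citrate lyase (Acly) splits it into acetyl-CoA, acetyl-CoA carboxylase turns this into malonyl-CoA, and fatty acid synthase (Fasn) lengthens the chain to palmitate. Stearoyl-CoA desaturases (Scd1, Scd2) then place a double bond in the saturated chain. Mid1ip1, also called MIG12, binds acetyl-CoA carboxylase and promotes its assembly into active filaments, and Thrsp, also called Spot 14, is its close relative and a classical target of thyroid hormone in liver and fat. In heart muscle, which lives mainly by burning fatty acids, malonyl-CoA is known above all as a brake on the entry of fatty acids into mitochondria.

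Genes for lipid synthesis are known to share promoter elements, among them the CCAAT box bound by NF-Y. RefSeq windows of 250 bases before the annotated start (assembly GRCm38.p6) were at hand for 4 of the 6 genes. Those of Thrsp, Mid1ip1 and Fasn are printed because these genes carried the largest differences at 4 weeks and moved in opposite directions. They lie at chr7:97417551-97417800 on the minus strand (Thrsp), chrX:10717115-10717364 on the plus strand (Mid1ip1) and chr11:120824548-120824797 on the minus strand (Fasn). Each reads 5′ to 3′ along the gene, and capitals mark CCAAT or its complement ATTGG.
Thrsp: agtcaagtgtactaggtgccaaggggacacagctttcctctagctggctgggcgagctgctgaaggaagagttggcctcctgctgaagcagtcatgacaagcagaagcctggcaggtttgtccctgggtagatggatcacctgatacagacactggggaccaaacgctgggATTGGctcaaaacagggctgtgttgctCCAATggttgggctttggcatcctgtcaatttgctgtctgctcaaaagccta
Mid1ip1: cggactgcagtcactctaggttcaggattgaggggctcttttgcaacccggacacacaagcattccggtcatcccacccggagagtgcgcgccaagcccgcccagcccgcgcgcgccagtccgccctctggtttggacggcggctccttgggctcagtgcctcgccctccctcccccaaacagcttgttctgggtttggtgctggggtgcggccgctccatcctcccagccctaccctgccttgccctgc
Fasn: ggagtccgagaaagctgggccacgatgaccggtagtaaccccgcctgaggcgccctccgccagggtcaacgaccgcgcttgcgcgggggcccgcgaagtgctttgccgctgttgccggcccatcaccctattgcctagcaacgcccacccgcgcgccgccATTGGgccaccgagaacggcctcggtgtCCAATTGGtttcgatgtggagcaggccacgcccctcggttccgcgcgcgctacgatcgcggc
CCAAT was searched on both strands and occurred 2 times before Thrsp and 3 times before Fasn, where a pair of matches on opposite strands overlapped. It did not occur in the windows of Mid1ip1 or Acly (chr11:100528001-100528250, minus strand). It was held by 33.8% of all 32851 such windows, so its presence is common. The E-box CACGTG, a pair of E-boxes spaced as in the carbohydrate response element, the sterol response element TCACNCCAC and TATAAA occurred in none of the 4 windows, against 6.02%, 0%, 1.05% and 12.4% of all windows. GC content was 53.6% for Thrsp, 66.8% for Mid1ip1, 69.2% for Fasn and 68.8% for Acly, with a median of 52.4% over all windows. Scd1 and Scd2 are named only.

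Correlation over all probe sets divided the arrays into 2 sets, of 6 and of 9, a division the labels do not mention. Each set held all 4 groups. Set 1 held control array 3 and knockout arrays 3 and 4 at 2 weeks, and control array 1 and knockout arrays 1 and 2 at 4 weeks. Array medians ran from 173.7 to 216.8. Judged by Xist against Uty, 1 of 3 control and 4 of 5 knockout arrays at 4 weeks came from females, as did 1 of 3 and 1 of 4 at 2 weeks. The defining genes of heart muscle were present on every array, with a summed intensity of 11 markers between 69351 and 86115. Mnat1 was read by 2 dim probe sets whose place relative to the deleted part is unknown here, so they do not check the labels. Their knockout minus control differences at 4 weeks were 0.53 ± 0.47 and -0.03 ± 0.27 (log2 ± SE), so neither was called lower in knockout hearts. With the array set as a block they were 0.45 ± 0.15 (161557_at, limma adjusted p = 0.0384, called higher) and -0.06 ± 0.21. Of all tested genes 35.5% were called in that blocked fit. Every knockout array of 161557_at lay above every control array of its own set at 4 weeks (300.3 and 314.3 against 243.8 in set 1, and 140.7 to 149.4 against 86 and 106.3 in set 2).

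Mid1ip1 showed the widest swing of the 6 genes. In control hearts its intensity was 533, 632 and 681 on the 3 arrays at 2 weeks and 1082, 1504 and 1751 on those at 4 weeks. In knockout hearts it was 432, 391, 669 and 698 at 2 weeks and 292, 279, 225, 188 and 284 at 4 weeks. The genotypes overlapped at 2 weeks and were far apart at 4 weeks, where every knockout array lay below every other array of the series. The mean at 4 weeks was 253 ± 45 (SD, n = 5) in knockout against 1446 ± 339 (SD, n = 3) in control hearts. The fitted difference was -2.43 ± 0.23 on the log2 scale, a 5.39-fold lower level and the 4th most negative of the 4950 genes. At 2 weeks the difference was -0.20 ± 0.24. The order of the group means was knockout at 4 weeks, knockout at 2 weeks, control at 2 weeks and control at 4 weeks, and only the middle pair did not differ beyond its spread.

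A dimmer Mid1ip1 probe set, 95134_at, moved the same way at 4 weeks by less. It read 479, 759 and 736 in controls and 331, 354, 329.6, 298 and 257 in knockouts, a difference of -1.01 ± 0.20 without overlap. The 2 probe sets differed over age in the knockout hearts, where the brighter one, 95135_at, changed by -1.04 ± 0.21 from 2 to 4 weeks and the dimmer one by -0.11 ± 0.19. Within array set 1 the brighter probe set differed between genotypes at 4 weeks by -1.87, and within set 2 by -2.74.

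Thrsp was higher at 4 than at 2 weeks in control hearts and stayed low in knockout hearts. Control arrays read 112, 103 and 130.2 at 2 weeks and 288, 569 and 787 at 4 weeks. Knockout arrays read 202, 194, 145 and 189.8 at 2 weeks and 159.6, 126, 218, 226 and 254 at 4 weeks. The genotypes did not overlap at either age but lay in opposite order, with the knockout arrays the higher ones at 2 weeks and the lower ones at 4 weeks. The difference between genotypes was 0.59 ± 0.29 at 2 weeks and -1.33 ± 0.28 at 4 weeks (log2 ± SE). From 2 to 4 weeks Thrsp differed by 2.00 ± 0.31 in control hearts, a 4.00-fold higher level, and by 0.07 ± 0.26 in knockout hearts. The 4-week controls varied most: the array of set 1 read 288, near the highest knockout array at 254, and the arrays of set 2 read 569 and 787. The genotype difference at 4 weeks was -0.95 within set 1 and -1.46 within set 2. From the lowest, the group means ran control at 2 weeks, knockout at 2 weeks, knockout at 4 weeks and control at 4 weeks, and the knockout groups overlapped each other.

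**Figure D1:**
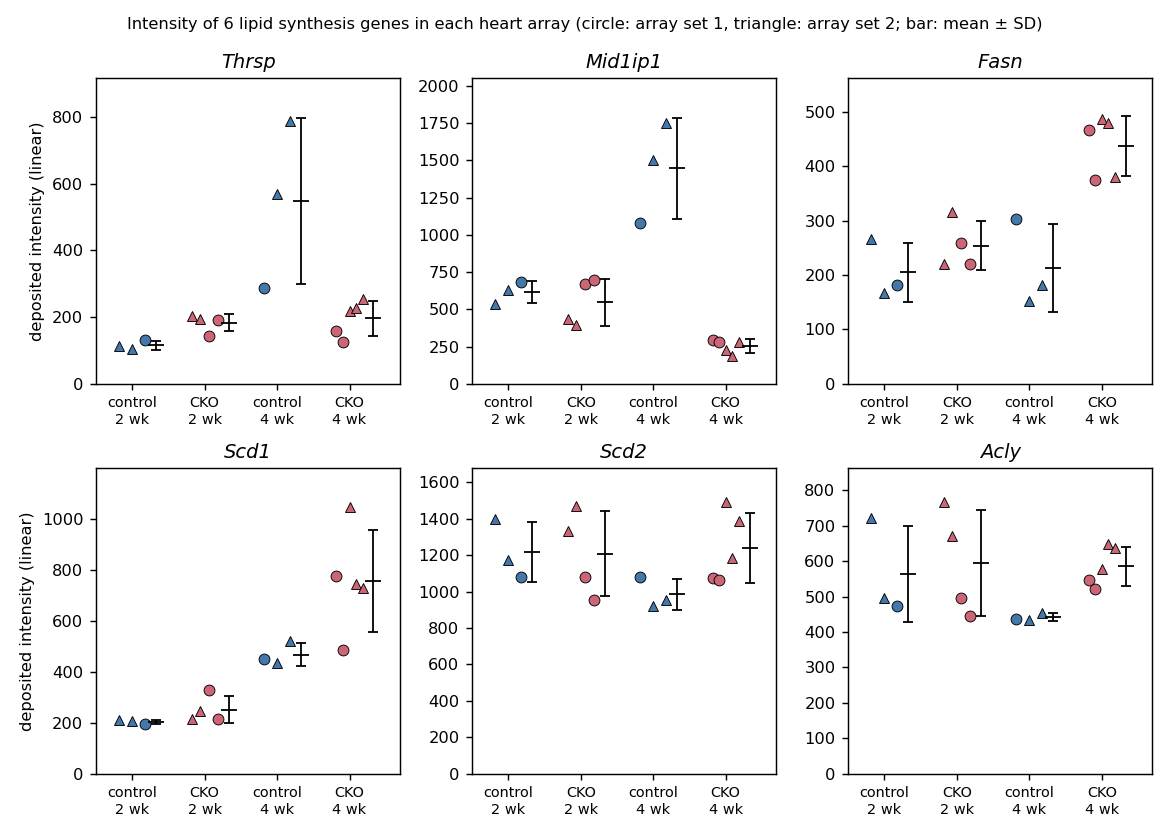
Deposited linear intensity of the 6 genes (brightest probe set of each) on every array, by group, with mean ± SD as bars; circles are arrays of set 1, triangles of set 2, blue is control and red is knockout (CKO). Mid1ip1 lies between 188 and 292 in knockout hearts at 4 weeks and at 1082 or above in the controls of that age, while Fasn lies at 376 or above and at 304 or below.

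Fasn, the enzyme that makes palmitate, lay the other way. Its intensity at 4 weeks was 304, 152 and 183 in controls and 466, 376, 487, 480.1 and 381 in knockouts, and the groups did not overlap. At 2 weeks it was 267, 166 and 181 in controls and 220.2, 316, 259 and 221 in knockouts, and the ranges overlapped. The fitted difference between genotypes was 1.04 ± 0.22 at 4 weeks, a 2.05-fold higher level, and 0.30 ± 0.23 at 2 weeks. Control hearts differed by 0.02 ± 0.24 between the ages, but by 0.70 within set 1 and -0.32 within set 2, with opposite signs. Knockout hearts were higher at 4 than at 2 weeks by 0.75 ± 0.20. The highest control array at 4 weeks was the one of set 1, and the genotype difference was 0.44 within that set against 1.34 within set 2. The 3 groups other than the 4-week knockout overlapped one another.

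Acly, which supplies the acetyl-CoA, differed little. At 4 weeks it read 436, 434 and 454 in controls and 548, 521, 578, 647 and 637 in knockouts. The groups did not overlap, with a difference of 0.39 ± 0.19. At 2 weeks control arrays read 721, 495 and 475 and knockout arrays 766, 672, 496 and 444, a difference of 0.07 ± 0.20 with nearly coinciding ranges. In the 2-week knockout hearts the arrays of set 2 (766 and 672) lay above those of set 1 (496 and 444). The 4-week controls had the lowest mean, and only the lowest 2-week knockout array (444) reached into their range.

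Scd1 was higher at 4 than at 2 weeks in both genotypes. Control arrays read 209, 209 and 194 at 2 weeks and 448, 434 and 520 at 4 weeks, which gave a difference of 1.13 ± 0.23. Knockout arrays read 215, 248, 327 and 213 at 2 weeks and 775, 486, 1046, 746 and 728 at 4 weeks, a difference of 1.51 ± 0.19. No 2-week array of either genotype reached the lowest 4-week array. At 4 weeks 4 of 5 knockout arrays lay above all controls, and the knockout array at 486, from set 1, lay within the control range. The genotype difference was 0.64 ± 0.21 at 4 weeks and 0.26 ± 0.21 at 2 weeks. At 2 weeks the groups did not overlap, but the lowest knockout array (213) lay only just above the highest control arrays (209).

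The 3 probe sets of Scd1 did not agree. Probe set 94057_g_at followed 94056_at, with a genotype difference at 4 weeks of 0.64 ± 0.26 that was not called. It rested on set 2 (1.00, against 0.02 within set 1). Both probe sets are annotated to the same source sequence, so their likeness is not an independent reading. The dim 94058_r_at differed by -0.67 ± 0.66 and followed the array sets, reading 48.6 or less on every array of set 1 and 115.5 or more on every array of set 2. With the array set as a block its difference was -0.56 ± 0.19 and was called lower in knockout hearts (limma adjusted p = 0.0437). Of all tested genes 35.5% were called in the blocked fit. The difference was -0.14 within set 1, where the probe set is dimmest, and -0.78 within set 2. The Scd1 probe sets thus differ in the sign of the genotype difference at 4 weeks. From 2 to 4 weeks 94057_g_at differed by 1.38 ± 0.29 in control and 1.76 ± 0.24 in knockout hearts. For 94058_r_at these differences were 0.50 ± 0.74 and 0.10 ± 0.60, neither of them called.

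The brighter of the 2 Scd2 probe sets differed little between the groups, and the other did not follow it. Probe set 95758_at read 1079, 921 and 953 in controls and 1077, 1061, 1495, 1184 and 1388 in knockouts at 4 weeks. The ranges overlapped, and the difference was 0.32 ± 0.17. At 2 weeks it read 1398, 1175 and 1081 in controls and 1333, 1469, 1079 and 953 in knockouts, a difference of -0.02 ± 0.17. The second probe set, 162077_f_at, had the opposite sign at 4 weeks (-0.46 ± 0.26), with 1332, 860.4 and 875 in controls and 1003, 997, 502, 600.5 and 653 in knockouts. Within both array sets it was lower in the knockout hearts (-0.41 and -0.56), whereas 95758_at differed by -0.01 and 0.52. Blocked on the array set, 162077_f_at was called lower in knockout hearts at 4 weeks (-0.50 ± 0.10), and lower at 4 than at 2 weeks in knockout hearts (-0.49 ± 0.09), from a mean of 1092 to 751. Blocked fits called many genes, 35.5% of all tested between genotypes at 4 weeks, and the count for age is given below. The genotype difference of Scd2 at 4 weeks thus has no settled direction. Scd1 and Scd2 are close paralogs, and which transcripts each of their probe sets binds was not checked here.

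**Figure D2:**
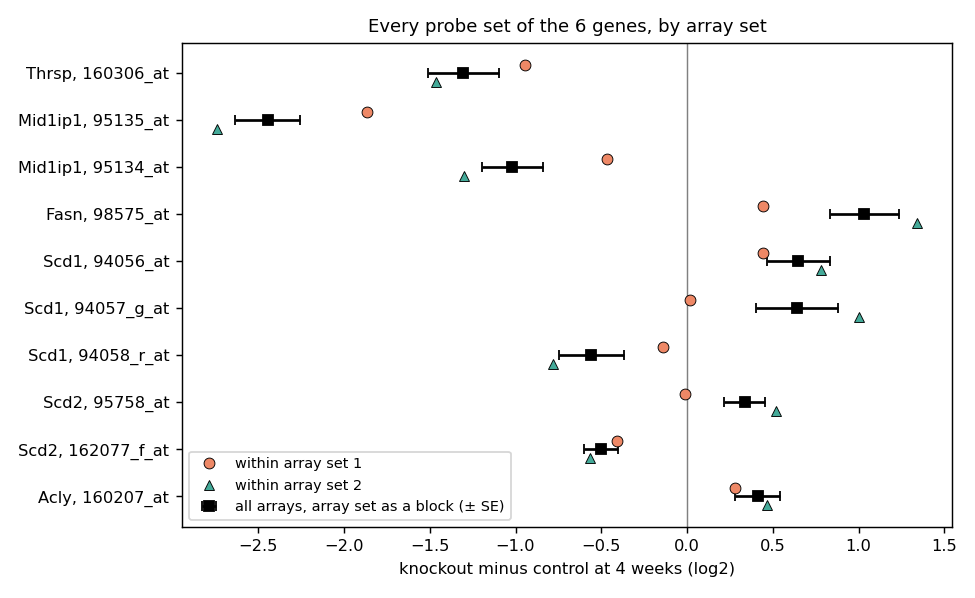
Knockout minus control difference at 4 weeks (log2) of all 10 probe sets of the 6 genes, within array set 1 (circles), within array set 2 (triangles) and over all arrays with the array set as a block (squares, ± SE). Both Mid1ip1 probe sets lie below 0 in both sets, while the Scd2 probe sets lie on opposite sides of 0 in set 2 (0.52 and -0.56).

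Fitted over all 4950 genes with limma, 554 genes differed between the genotypes at 4 weeks at an adjusted p under 0.05, which is 11.2% of the genes tested. Of these 326 were higher and 228 lower in knockout hearts, and after quantile normalization 241 were higher and 308 lower. Of the 6 genes 3 were among them, Fasn as higher (as were 6.59% of all tested genes) and Thrsp and Mid1ip1 as lower in knockout hearts (4.61%). With the array set as a block 35.5% of all genes and 6 of the 6 were called, 4 of them higher and 2 lower, each on its brightest probe set. Without control array 2 at 4 weeks the call for Fasn was lost (0.84, limma adjusted p = 0.0523) and 307 genes in all were called; without control array 3, 353 were. The groups at 4 weeks did not overlap for 4 of the 6 genes and for 17.4% of all tested genes. The median difference was 0.36 over the 6 genes and 0.08 over all tested genes, and the 6 ranged from -2.43 to 1.04.

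At 2 weeks 1 of the 4950 genes was called (0.0202%), and none of the 6 was (limma; none had an unadjusted p under 0.05 either). Groups did not overlap for 2 of the 6 genes, Thrsp and Scd1, both higher in knockout hearts, and for 2.42% of all tested genes (1.84% in that direction). The median difference of the 6 was 0.16, against 0.04 over all tested genes.

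The difference between the genotype effects at the 2 ages was largest for Mid1ip1 and Thrsp. It came to -2.23 ± 0.33 for Mid1ip1, the most negative value of all 4950 genes, and to -1.93 ± 0.40 for Thrsp, the 7th most negative. Both were called, as were 77 of all tested genes (1.56%, or 0.788% in the lower direction; 20 to 83 genes with single arrays left out). The call for Thrsp was lost without control array 2 (-1.85) or 3 (-1.62) at 4 weeks, without any 1 of the 3 control arrays at 2 weeks and without knockout array 2 or 4 at 2 weeks, with values from -2.01 to -1.85 in the latter 5 cases. It was also lost after median scaling (-1.95). The dimmer Mid1ip1 probe set, 95134_at, gave -0.78 ± 0.29 for the difference of effects and was not called. The other 4 genes had positive values, of 0.73 ± 0.31 for Fasn, 0.38 ± 0.30 for Scd1, 0.34 ± 0.24 for Scd2 and 0.32 ± 0.27 for Acly. None of these 4 was called in limma, and 1 of them, Fasn, had an unadjusted p under 0.05.

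Between 2 and 4 weeks, 3 of the 6 genes were called higher in control hearts (Thrsp, Mid1ip1 and Scd1), where 36 of all tested genes were called in either direction (0.727%, or 0.485% as higher; 7 to 46 genes with single arrays left out). Leaving out single arrays took the call from Mid1ip1 in 9 and from Scd1 in 10 of 15 cases, with differences of 1.04 to 1.38 and 1.06 to 1.18, and median scaling also ended both calls (1.22 and 1.16). The call for Thrsp was lost without control array 2 or 3 at 4 weeks (1.92 and 1.69). It was also lost without control array 1 or 2 at 2 weeks (1.99 and 1.93). No other probe set of these genes was called in control hearts. Mid1ip1 95134_at differed by 0.68 ± 0.23, and Scd1 94057_g_at and 94058_r_at by 1.38 ± 0.29 and 0.50 ± 0.74. In knockout hearts Scd1 and Fasn were called higher and Mid1ip1 lower (-1.04 ± 0.21), where 325 of all tested genes were called (6.57%, of which 3.76% higher and 2.81% lower; 207 to 338 genes with single arrays left out). The call for Fasn was lost without knockout array 1, 3 or 4 at 4 weeks or 1, 3 or 4 at 2 weeks (0.69 to 0.77) and after median scaling (0.76). In control hearts the 2 ages did not overlap for 5 of the 6 genes, against 10.1% of all tested genes (4.91% higher and 5.21% lower). Of the 5, Scd2 (-0.30 ± 0.19) and Acly (-0.32 ± 0.21) were lower at 4 weeks. The Scd2 values only just missed each other (1079.2 at 4 weeks against 1080.7 at 2 weeks). Its other probe set, 162077_f_at, overlapped (-0.13 ± 0.29). In knockout hearts the 2 ages did not overlap for 3 of the 6 and for 9.98% of all tested genes. These comparisons share arrays with those between genotypes, so their values are not independent of them. Knockout hearts at 4 weeks stood below the 2-week controls in Mid1ip1 (0.41 times their mean intensity, and 0.79 times on 95134_at). They stood above them in Scd1 (3.71 times), Fasn (2.14 times) and Thrsp (1.71 times, with overlap). Scd2 and Acly were at 1.02 and 1.04 times. The Scd1 probe set 94058_r_at did not follow (0.93 times, with overlap).

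**Figure D3:**
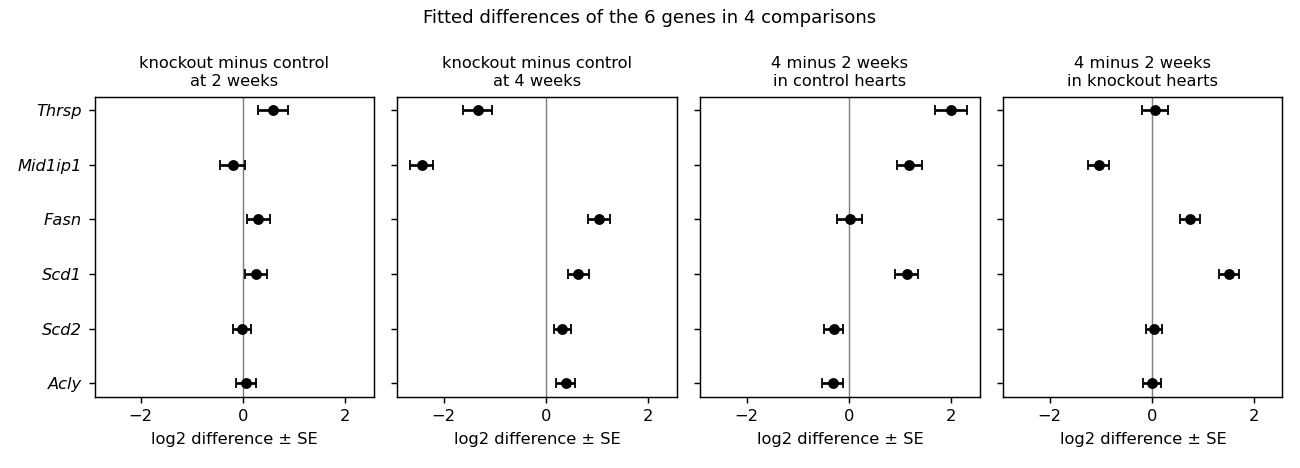
Fitted log2 difference ± SE of the 6 genes (brightest probe set of each) in 4 comparisons: knockout minus control at 2 and at 4 weeks, and 4 minus 2 weeks in control and in knockout hearts. Thrsp lies at 0.59 between genotypes at 2 weeks and at -1.33 at 4 weeks, and Scd1 lies above 1 in both comparisons of age.

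Markers of several cell types moved with genotype at 4 weeks. Of all tested genes 6.59% were called higher and 4.61% lower, and 35.5% were called with the array set as a block. Blocked calls among endothelial and fat cell markers, given below, were near that blocked share. Of 8 fibroblast markers 7 were called higher in knockout hearts, and their summed intensity was 10788 to 12450 in controls and 22661 to 29758 in knockouts. Of 11 heart muscle markers 5 were called lower, with sums of 82188 to 86115 in controls and 69351 to 73408 in knockouts. Sums of 9 skeletal muscle markers were 4205 to 6216 and 9259 to 10217, and 1 of 5 tested, Myl1, was called higher. Myl1 had a mean of 915 in controls and 5777 in knockouts, and without it the sum of the other 8 was 3850 to 4759 in controls and 3613 to 4096 in knockouts, a sum added after the values were seen. Blocking on the array set called Myl1 and Actn3 higher and Ckm lower. Endothelial sums were 6282 to 8218 and 6977 to 9904 (1 of 8 tested called higher; blocked on the array set, 2 were called higher and 1 lower), macrophage sums 2160 to 3297 and 2278 to 4364 (none of 6 called), and Schwann cell sums 282 to 675 and 304 to 561 (the 1 tested not called). The sum of 2 erythroid markers was 5890 to 7325 in controls and 7430 to 13313 in knockouts, and neither was called (limma, smallest adjusted p = 0.0703, 1 with an unadjusted p under 0.05), while Hba-a1 was called higher after blocking on the set (0.44, adjusted p = 0.0204). Fat cells, in which Thrsp, Fasn and Scd1 are abundant, had 10 of 13 markers measured and 6 tested, of which none was called in limma at 4 weeks (smallest adjusted p = 0.144, and 1 with an unadjusted p under 0.05; 2 were called higher with the array set as a block). Their summed intensity was 2603 to 2724 in controls (median 2635) and 2551 to 3359 in knockouts (median 3110) at 4 weeks, and 2319 to 2693 and 2245 to 3010 at 2 weeks. At 4 weeks every knockout array but array 5 (2551) lay above all controls. Sums also differed between the ages, with fibroblast sums at 2 weeks of 14752 to 21551 in controls and 15504 to 26470 in knockouts. No tested marker of any list was called between genotypes at 2 weeks (limma; 4 of 11 heart muscle and 1 of 8 fibroblast markers had an unadjusted p under 0.05). Adipoq, which defines fat cells, read 99.3 to 120.2 in controls and 56.05 to 139.7 in knockouts at 4 weeks. No list was at 0, and single values at the floor of the arrays (0.95) occurred for Lipe in 1 control array at 2 weeks and for Myh1 in 1 knockout array at 4 weeks. The part of these cell types, and of the unequal numbers of females, in the values of the 6 genes was not tested. With array set and inferred sex both as blocks the differences at 4 weeks were -2.25 for Mid1ip1, -1.14 for Thrsp, 0.81 for Fasn, 0.64 for Scd1, 0.33 for Acly and 0.25 for Scd2. In whole hearts, fewer cells of a type and less RNA per cell cannot be told apart.

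Among the other enzymes listed as linked to fatty acid synthesis, which include the malonyl-CoA decarboxylase Mlycd, the share called was near that of all tested genes. Of 28 such genes listed 14 had a probe set of their own and 11 were tested. At 4 weeks 1 of the 11 fell and none rose (11.2% of all tested genes were called), with a median of -0.03 against 0.08 over all tested genes. The gene that fell was Idh1, the cytosolic isocitrate dehydrogenase that yields NADPH, by 0.43 ± 0.12 (limma adjusted p = 0.0337), from 590.5 to 640.3 on control to 400.3 to 504.2 on knockout arrays. This call was lost without control array 2 or 3 or without knockout array 2, 3 or 5 at 4 weeks. With the array set as a block 3 of the 11 fell, where 35.5% of all tested genes were called. Acaca and Acacb, the carboxylases that Mid1ip1 acts on, have no probe set of their own here and were not analysed.

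Of 30 regulators of lipid synthesis 19 were measured and 13 tested. At 4 weeks 1 of the 13 fell and none rose, with a median of 0.08, the same as over all tested genes. Of all tested genes 11.2% were called (4.61% as lower). With the array set as a block 35.5% were called, a larger share than among the 13. A block for the array set left Prkab1 as the 1 that fell and added 1 that rose, Mbtps1, the protease that cleaves SREBP, by 0.42 ± 0.13 (adjusted p = 0.0221). Prkab1, a subunit of the kinase AMPK, which inhibits acetyl-CoA carboxylase, fell by 1.31 ± 0.34 (limma adjusted p = 0.0203), a call that was lost without control array 2 or 3 at 4 weeks. Srebf1, which encodes the chief activator of lipid synthesis genes, differed by 0.37 ± 0.20 (adjusted p = 0.314), with 296.2 to 348.5 in controls and 264.3 to 629.7 in knockouts. The thyroid hormone receptor genes Thra (0.27 ± 0.22, adjusted p = 0.552) and Thrb (0.20 ± 0.46, adjusted p = 0.888) did not pass the test either. Nr1h3, the liver X receptor that drives Srebf1, was dim and differed by 0.54 ± 0.23 (adjusted p = 0.202 in the fit to all 8251 genes). From 2 to 4 weeks Nr1h3 rose by 1.20 ± 0.21 in knockout hearts (adjusted p = 0.00412) and differed by 1.27 ± 0.26 in control hearts (adjusted p = 0.0513), both in that wider fit. Among other dim genes Insig1, which retains SREBP in the endoplasmic reticulum, differed by -0.02 ± 0.51 and Mid1, the binding partner for which Mid1ip1 is named, by 0.39 ± 0.19 at 4 weeks. Srebf2 and Mlxipl have no probe set of their own here.

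Of the 7 genes called in 4 lists of related genes at 4 weeks, 4 belong to the handling of glycerolipids and the uptake of fatty acids. Of 25 genes listed for it 16 were measured and 15 tested, and at 4 weeks 4 of the 15 fell and none rose (4.61% of all tested genes were called lower), with a median of -0.28. Gpam, the mitochondrial acyltransferase that begins triglyceride synthesis, fell by 1.07 ± 0.12 (limma adjusted p = 5.3e-05), from 1741.5 to 2229.6 in control to 791.8 to 1105.6 in knockout hearts. Lpin1, a phosphatidate phosphatase, fell by 0.98 ± 0.19 (adjusted p = 0.00437). Lpl, which frees fatty acids from circulating lipoproteins, fell by 0.67 ± 0.09 (adjusted p = 0.000303), from 6369 to 6795 in control to 3691 to 4472 in knockout hearts. Cd36, a fatty acid transporter, fell by 0.93 ± 0.25 (adjusted p = 0.0266). The groups did not overlap for any of these 4 genes, nor for 17.4% of all tested genes. The 4 are named for their calls in this comparison, so the lack of overlap adds no support. Leaving out single arrays kept 3 or 4 calls in this list in all 15 cases. After blocking on the array set 5 fell and 1 rose, so 6 of the 15 were called, a share near the 35.5% of all tested genes.

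For Gpam and Lpl the genotype effect differed between the ages. The difference of effects was -0.93 ± 0.17 for Gpam (limma adjusted p = 0.0161) and -0.66 ± 0.13 for Lpl (adjusted p = 0.0252). Neither was called without control array 2 or 3 at 4 weeks or without control array 1 at 2 weeks, and 1 of them was without control array 2 or knockout array 3 at 2 weeks. Neither was called after median scaling, and 1 was after quantile normalization. Lpl was higher at 4 than at 2 weeks in control hearts by 0.64 ± 0.10 (limma adjusted p = 0.0112, lost in 4 of 15 cases of a left-out array and after quantile normalization), and in knockout hearts the difference was -0.02 ± 0.08. Gpam differed by -0.03 ± 0.13 between the ages in control hearts and fell by 0.96 ± 0.11 in knockout hearts (adjusted p = 0.000121).

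**Figure D4:**
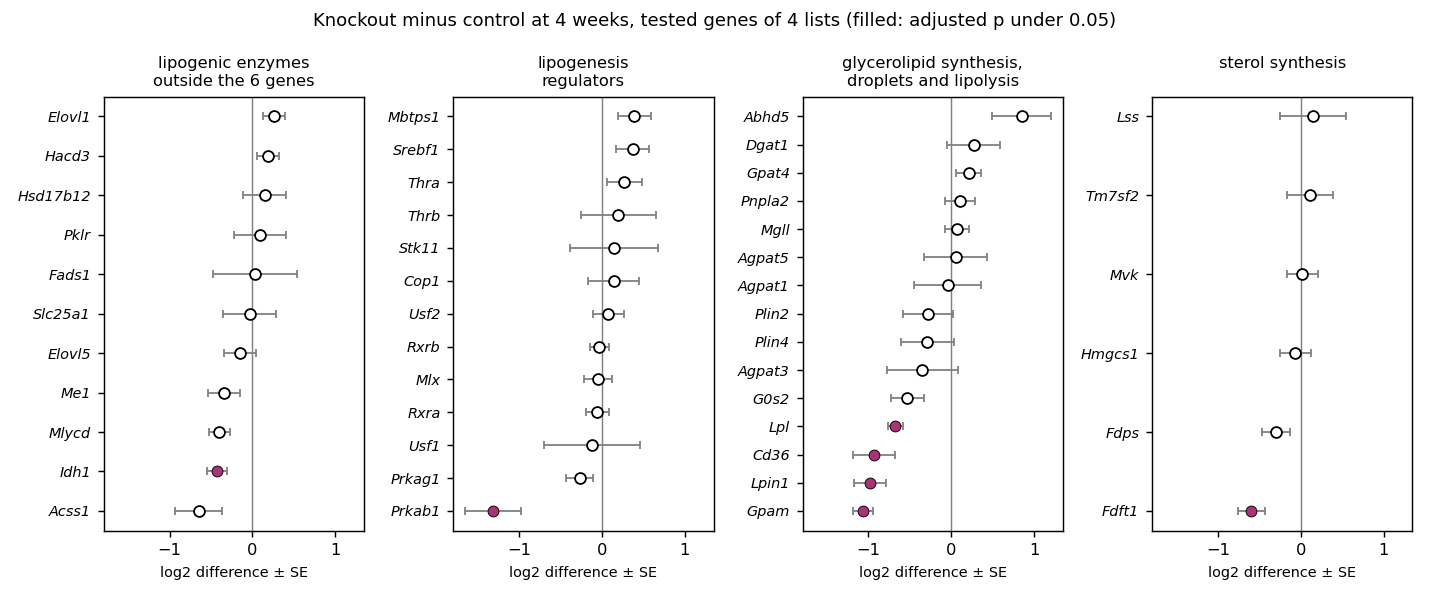
Knockout minus control difference at 4 weeks (log2 ± SE) for the tested genes of 4 lists outside the 6 genes; filled points have a limma adjusted p under 0.05. The filled points are Idh1, Prkab1, Gpam, Lpin1, Lpl, Cd36 and Fdft1, all of them below 0.

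Sterol synthesis, which the same family of SREBP factors controls, had 17 of 23 genes measured and only 6 bright enough to test. At 4 weeks Fdft1, the squalene synthase, fell by 0.60 ± 0.16 (limma adjusted p = 0.0265), which rested on set 2 (-0.90, against -0.07 within set 1). The call was lost without control array 2 or 3 or without knockout array 3, 4 or 5 at 4 weeks. Fdft1 was the only 1 of the 6 called at 4 weeks, where 4.61% of all tested genes were called lower. It passed the filter on dim genes only through the 4-week controls, with a mean intensity of 250 there and 159 to 196 in the other groups. Its call thus rests on the group that let it in. The median of the 6 was -0.02. At 2 weeks no tested gene of any of the 4 lists passed the limma test (all adjusted p = 1), and none had an unadjusted p under 0.05.

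Likeness to other genes was measured as Pearson's r of log2 values over the 15 arrays, after the mean of each array set was taken off. The arrays share their groups, so r is a description of how group means and single arrays line up. Mid1ip1 was most like Cox7a1 (0.984), a subunit of cytochrome oxidase, then Ivns1abp (0.969) and Idh2 (0.957), the mitochondrial isocitrate dehydrogenase. Thrsp was most like Gaa (0.915), the lysosomal glucosidase, H2-Q5 (0.899) and Gstm2 (0.885). Scd1 was most like Smpd1 (0.968), Hspb8 (0.954) and Stat3 (0.950). Fasn was nearest to H13 (0.944), Ywhaz (0.941) and Dap (0.938), and Acly to Cfl1 (0.917), Gnb2 (0.914) and Mfap2 (0.909). For Scd2 the nearest were Myt1 (0.941), Rce1 (0.905) and Mfap2 (0.896). Before the set means were removed r was -0.06 for Myt1 and 0.22 for Rce1 with Scd2, and 0.57 for H13, 0.74 for Ywhaz and 0.71 for Dap with Fasn, so these likenesses depend on removing them. The others were at 0.83 or above as deposited.

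Among the 6 genes themselves Mid1ip1 ran opposite to Fasn (r = -0.835), Acly (-0.719) and Scd2 (-0.692) and with Thrsp (0.595). Thrsp ran opposite to Scd2 (-0.667) and Acly (-0.617), and had an r of only -0.208 with Fasn. Scd1 went with Fasn (0.717) and Scd2 with Acly (0.768). Scd1 had an r of -0.387 with Mid1ip1 and 0.372 with Thrsp. The 6 genes thus did not vary as 1 group. The pair of regulators were lower and Fasn higher in 4-week knockout hearts than in controls of that age. The brightest probe set of Scd1 was high at 4 weeks in both genotypes. The brightest probe sets of Acly and Scd2 stayed within 1.33-fold in mean intensity between genotypes at both ages.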

How the data were processed

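Intensities of 12422 probe sets on 15 arrays were taken as deposited. They are linear intensities with a floor of 0.95, with the authors' background correction and scaling not given in the sources used here. RNA was isolated with Trizol and columns and labelled with biotin, per the labels. Array medians lay within 1.248-fold of each other, under the limit of 1.25, so no normalization was added. Of the probe sets with 1 symbol the brightest stood for its gene (8251 genes), and the lowest 40% were left out, which left 4950. In the annotation 10833 probe sets had 1 symbol (10817 updated by gene ID), 396 had several and 1193 had none. log2(intensity + 16) was fitted with limma 3.58.1 in R 4.3.3, 1 coefficient per group over all arrays with an intensity trend, and genes with a Benjamini-Hochberg adjusted p under 0.05 are called (two-sided). Errors of differences are standard errors. The fit was tested on simulated data. The number of arrays limits the precision.

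The 6 genes, the 4 lists of related genes and the marker lists were chosen with earlier results of these data known. Named related genes are those called in a genotype comparison or in the difference of effects, 10 regulators and enzymes whatever their values, and the 3 genes most like each of the 6. The alternatives were quantile and median normalization, array set, inferred sex and replicate number as blocks, fits within each array set, pseudocounts of 1 and 64, no filter, means over probe sets, and each array left out.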

Additional observations from a re-analysis of the deposited data

Results flagged for a closer look

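Thrsp and Mid1ip1 had genotype effects that differed between 2 and 4 weeks, by -1.93 (limma adjusted p = 0.03) and -2.23 (limma adjusted p = 0.00347) on the log2 scale, in a test of the difference itself. These 2 genes were chosen from values of the same arrays, so the tests describe them and support nothing. The dimmer Mid1ip1 probe set, 95134_at, gave -0.78 ± 0.29 and was not called. The call for Thrsp was lost in 7 of 15 cases of a left-out array (-2.32 to -1.62 over all 15) and after median scaling (-1.95). For Thrsp all 4 knockout arrays lay above all 3 controls at 2 weeks, and all 5 lay below all 3 controls at 4 weeks. Gpam differed in the same test by -0.929 (limma adjusted p = 0.0161) and Lpl by -0.657 (limma adjusted p = 0.0252). At least 1 of these 2 calls was lost in 5 of 15 cases of a left-out array, and both were lost after median scaling. For both, the genotypes did not overlap at 4 weeks, and all 5 knockout arrays were the lower ones. The same lack of overlap, in either direction, held for 17.4% of all tested genes. Both genes were called in that comparison too, so it adds no support. Lists of this kind were chosen with earlier results known.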

How the results depend on the processing

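Mid1ip1, Thrsp, Fasn, Scd1 and Acly kept their direction at 4 weeks under all 12 alternatives that kept every array or 1 array set whole, with ranges of -2.74 to -1.72, -1.50 to -0.95, 0.44 to 1.34, 0.20 to 0.78 and 0.28 to 0.47. Scd2 did not: it was -0.013 within array set 1 and -0.071 as a mean over its probe sets. Fasn was not called within array set 1 (0.44). Once the array set was a block, Scd1 (0.65), Scd2 (0.34) and Acly (0.41) were called, as they were within array set 2 (0.78, 0.52 and 0.47), and Scd1 also with quantile normalization added (0.55) or inferred sex (0.64). Within array set 1 each control group is 1 array, assumed to vary like the other groups. These values are of the brightest probe sets, except for the mean over probe sets. With the array set as a block, 94058_r_at of Scd1 (-0.56) and 162077_f_at of Scd2 (-0.50) were called lower.

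Counts are given for the genotypes at 4 weeks, at 2 weeks, the difference of effects, and age in control and in knockout hearts. They were 1756, 4, 616, 293 and 1242 when the array set was a block, 1738, 4, 648, 295 and 1300 with quantile normalization as well, and 1564, 4, 450, 322 and 1117 with inferred sex as well. Within array set 1 they were 1169, 1, 297, 51 and 1052, and within set 2 they were 1435, 3, 358, 266 and 905. Median scaling gave 381, 1, 7, 11 and 180, and quantile normalization gave 2 at 2 weeks. At 4 weeks 58.8% of the calls were higher as deposited, 43.9% after quantile and 44.4% after median scaling. All 7 calls for the difference of effects were lower after median scaling, and 10 of 11 for age in controls were higher (90.9%, against 66.7%). The cause of these changes was not tested.

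Leaving out single arrays gave 307 to 590 calls at 4 weeks, 1 to 2 at 2 weeks, 20 to 83 for the difference of effects, 7 to 46 for age in control and 207 to 338 for age in knockout hearts. The lowest counts came without control array 2 (307, 20 and 8) or 3 (353, 25 and 7) at 4 weeks, without control array 1 at 2 weeks (25 and 8) and, for age in knockout hearts, without knockout array 3 at 4 weeks (207). The differences at 4 weeks ran from -2.62 to -2.28 for Mid1ip1, -1.73 to -1.03 for Thrsp, 0.84 to 1.31 for Fasn, 0.51 to 0.79 for Scd1, 0.35 to 0.43 for Acly and 0.25 to 0.39 for Scd2. Scd1 was called without knockout array 2 (0.79).

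Groups share sample numbers. The 5 same-numbered pairs whose arrays lay in 1 array set deviated together (r from 0.473 to 0.845) and the pair across sets did not (-0.519), so r follows the array sets and does not settle whether the numbers pair the arrays, and no pairing was assumed. With the number as a replicate block 316, 1, 23, 15 and 151 genes were called, and 4 of 6 control arrays correlated best with their own number.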
